A study of Mus musculus with 31 samples.

Results

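The step described here is the passage of CD8 T cells from the thymus to the spleen in adult mice. It is read from 8 of the series' 31 RNA-seq libraries, chosen by their titles: 4 of adult thymic CD8 single-positive cells (written SP8) and 4 of adult splenic CD8 T cells (written CD8). All mice were C57BL/6, an inbred strain, and the adults were 12 weeks old. No further allele or treatment was named. Thymus and spleen were dispersed to single cells. SP8 cells came from the thymic fraction that was not held by CD4 magnetic beads and was then held by CD8a beads. Splenic cells were enriched with CD8a beads, and the design text calls them naive. Populations were isolated by flow cytometry with antibodies to CD4, CD8, CD44 and CD25, and the gates were not given in the sources used here. The series also holds double-negative (DN) and double-positive (DP) thymocytes and the same stages from neonates of 5 to 7 days, which are used below for comparison only. The design text calls the libraries of a group biological replicates. The labels name no sex, litter, day or batch, and do not say whether the spleen and the thymus of a number came from the same animal. P-values rest on the spread between libraries within groups, estimated over all 31 libraries and not over these 8 alone. In sorted bulk RNA, a change in the share of cells that carry a transcript and a change in its amount per cell cannot be told apart.

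Thymocytes that have been selected on MHC class I lose CD4, mature in the thymic medulla and leave through blood and lymph. KLF2 is the transcription factor that turns on S1PR1, the receptor for sphingosine-1-phosphate that guides mature thymocytes out. Emigrants finish maturing in the periphery, where naive CD8 T cells rest outside the cell cycle, survive on interleukin 7 and self-peptide signals, and recirculate between spleen and lymph nodes.

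The 8 libraries held from 14298881 to 18976470 counts, at which 3 counts, used here as the detection floor, equal 0.157 to 0.211 CPM (counts scaled to library size by the TMM method). A mean is given with its SD over the 4 libraries of a group, and a pair of values runs from SP8 to CD8. Libraries of a group correlated with r from 0.980 to 0.988 over genes, and no pair of them was as alike as counting error alone would make it. Cd8a, the CD8 alpha chain, was at 1727 ± 125 CPM in SP8 and 1654 ± 83.9 CPM in CD8 (SD, n = 4 each). The difference did not pass the test (log2 fold change −0.06, SE 0.08, edgeR adjusted p = 0.546), and its direction turned under DESeq2 size factors (0.01). SP8 replicate 2 stood apart from the other SP8 libraries, with a summed level of the cell cycle genes of 8635 CPM against 10824 to 11539.7 CPM. Replicate 1 of both groups was low in sex-linked genes, here 4 Y-linked genes and Xist, with a sum of 35.5 CPM in SP8 and 47.1 CPM in CD8 against 237.6 to 371 CPM in the other 6 libraries. Without SP8 replicate 2 the comparison gave 7207 called genes, and without replicate 1 in both groups 6313, against 7410 with every library.

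Markers of other cells were also read from the 8 libraries. The 9 markers of early or DP thymocytes summed to 654 to 1031 CPM in SP8, lowest in replicate 2, and to 49.8 to 53.4 CPM in CD8. Most of the CD8 sum was Cd1d1, at 39.3 ± 4.44 CPM in SP8 and 41.4 ± 2.54 CPM in CD8. That gene did not pass the test (log2 fold change 0.08, SE 0.10, edgeR adjusted p = 0.562). Of 10 gamma-delta T cell markers 7 were lower in CD8, led by Trdc, the delta chain constant region, at 62.2 ± 11.4 CPM in SP8 and 4.83 ± 0.427 CPM in CD8, while Il17a and Zbtb16 were at or under the floor in both groups. Without Cd163l1, which rose (log2 fold change 3.33, SE 0.18, edgeR adjusted p = 1.77e-17), the other 9 summed to 58.8 to 91.0 CPM in SP8 and 6.74 to 8.93 CPM in CD8. The 8 NK cell markers summed to 44.0 to 63.6 CPM in SP8, mostly Gzma, and to 7.32 to 10.7 CPM in CD8. Without Gzma the direction turned, with sums of 0.680 to 1.49 CPM in SP8 and 5.56 to 8.57 CPM in CD8. These were mostly Klre1 (0.297 ± 0.111 CPM in SP8 and 4.92 ± 1.27 CPM in CD8), with Ncr1 and Klrb1b at or under the floor in both. The 11 B cell markers summed to 13.04 to 16.2 CPM in SP8 and 19.6 to 25.5 CPM in CD8, mostly Cd79b (10.6 ± 1.47 CPM in SP8 and 16.6 ± 1.98 CPM in CD8), with Ms4a1, Pax5 and Ebf1 at or under the floor. The 13 dendritic cell markers summed to 413 to 476 CPM in SP8 and 225 to 331 CPM in CD8, mostly Bst2 and Ccr9. Without Bst2 and Ccr9 the sums were 33.5 to 55.8 CPM in SP8 and 34.4 to 122 CPM in CD8. Among the rest H2-Aa, an MHC class II gene, was at 2.27 ± 1.37 CPM in SP8 and 11.5 ± 3.905 CPM in CD8. Of the 13 dendritic cell markers 4 were higher and 3 lower in CD8, and without CD8 replicate 2 there were 8 higher and 3 lower. Myeloid sums stayed between 4.602 and 9.29 CPM and erythroid sums between 0.105 and 1.34 CPM over the 8 libraries. Among stromal markers Foxn1, Psmb11, Col3a1 and Pdgfra were at or under the floor in both groups. Epcam, an epithelial adhesion protein, fell from 5.92 ± 0.755 to 2.91 ± 0.384 CPM (log2 fold change −1.02, SE 0.18, edgeR adjusted p = 9.77e-06). Cdh5 (VE-cadherin), of endothelium, was at 0.583, 1.45, 0.8898 and 2.02 CPM in SP8 and at or under the floor in CD8, at least 6.07-fold lower. Pecam1 (CD31), which T cells also carry, rose from 128 ± 18.1 to 169.8 ± 17.6 CPM (log2 fold change 0.41, SE 0.09, edgeR adjusted p = 1.38e-04). Without Pecam1 the other 11 stromal markers summed to 8.22 to 12.3 CPM in SP8 and 3.94 to 5.14 CPM in CD8. Of 8 CD4 lineage markers 4 were lower and 1 higher in CD8, with sums of 186 to 253 CPM in SP8 and 48.3 to 57.2 CPM in CD8 that were mostly Ikzf2 and Izumo1r. What part such cells have in the results below was not tested.

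Of 16461 tested genes, 7410 (45.0%) differed between adult SP8 and CD8 in edgeR's quasi-likelihood test (Benjamini-Hochberg adjusted p below 0.05). There were 2915 genes higher in CD8 (17.7%) and 4495 lower (27.3%), and the median log2 fold change over all tested genes was −0.03. The split depended on the scaling and the fit. It was further from even with total-count scaling (2707 higher and 4687 lower, median −0.05) and with no low-count filter (2682 and 4388). The same held without replicate 1 in both groups (2292 and 4021). It changed little by limma-voom (3033 and 4396) and was nearer to even under other settings. There were 3614 higher and 3988 lower with DESeq2 size factors (median 0.03), 3737 and 4071 by DESeq2 (0.03), and 3230 and 3411 in an edgeR fit of the 8 libraries alone (0.04). At least 2-fold changes were found for 796 genes in the upward direction (4.84%) and 1858 in the downward direction (11.3%). Counting genes called or not, the 4 CD8 libraries lay above the 4 SP8 libraries for 2415 genes (14.7%) and below them for 3765 genes (22.9%). Among called genes alone, 2197 higher and 3631 lower genes had no overlap, which is the measure given for the lists below. These shares and counts are the background for the gene groups described next.

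**Figure D1:**
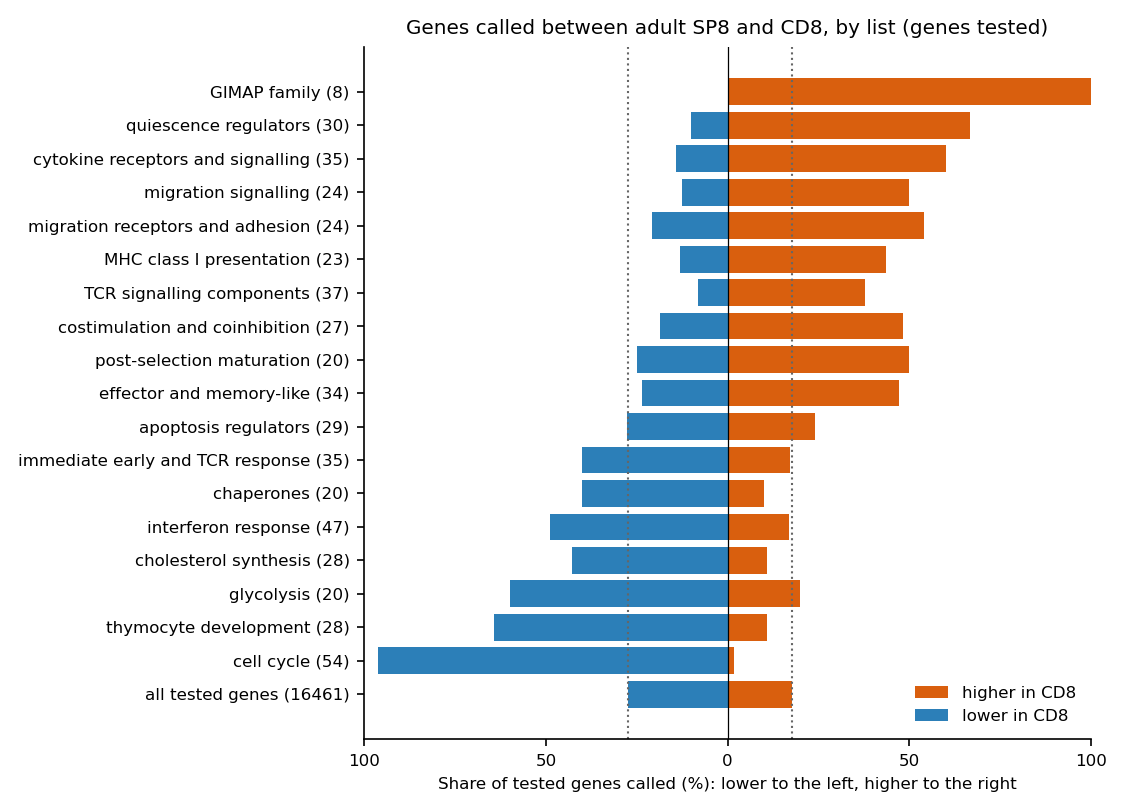
Share of the tested genes of each list that was higher (right) or lower (left) in adult CD8 than in adult SP8 by edgeR (Benjamini-Hochberg adjusted p below 0.05), with the number of tested genes in brackets. The dotted lines mark the shares over all 16461 tested genes, 17.7% higher and 27.3% lower; 8 of 8 GIMAP genes were higher and 52 of 54 cell cycle genes were lower.

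Klf2 and several receptors of exit and recirculation rose in splenic cells. Klf2 lies on chromosome 8, 72319033 to 72321656, plus strand (mm10). It was at 238, 368, 282 and 304 CPM in SP8 replicates 1 to 4 and at 552, 555, 724 and 801 CPM in the CD8 libraries. S1pr1, on chromosome 3, 115710433 to 115715072, minus strand, was at 217, 234, 196 and 223 CPM in SP8 and 563, 577, 467 and 619.8 CPM in CD8. For both genes each CD8 library lay above each SP8 library. Klf2 rose 2.21-fold (log2 fold change 1.14, SE 0.17, edgeR adjusted p = 2.22e-06). S1pr1 rose 2.56-fold (log2 fold change 1.36, SE 0.11, edgeR adjusted p = 2.09e-12). S1pr4, a second receptor for sphingosine-1-phosphate, rose from 164 ± 18.4 to 294 ± 43.1 CPM (log2 fold change 0.84). Ccr7 brings T cells to lymph node T zones and rose from 359 ± 50.3 to 487 ± 73.2 CPM (log2 fold change 0.44). The integrin alpha chain Itga4 rose from 222 ± 36.2 to 441 ± 69.1 CPM (log2 fold change 0.99). Itga6, another, rose from 61.7 ± 2.92 to 129 ± 11.5 CPM (log2 fold change 1.06). Cxcr3, a chemokine receptor of differentiated T cells, was at 6.16, 4.21, 3.51 and 5.41 CPM in SP8 and 73.98, 49.5, 83.6 and 61.05 CPM in CD8, 13.99-fold higher (log2 fold change 3.81, SE 0.21, edgeR adjusted p = 2.66e-16). Cxcr5, which draws lymphocytes to follicles and is not in the receptor list, was at 0.907, 0.789, 0.8898 and 1.24 CPM in SP8 and 21.8, 19.1, 25.01 and 22.1 CPM in CD8, 22.9-fold higher (log2 fold change 4.52, SE 0.24, edgeR adjusted p = 5.52e-18). Cd44, the adhesion receptor used in sorting, rose from 18.4 ± 2.52 to 37.1 ± 5.65 CPM (log2 fold change 1.01, SE 0.15, edgeR adjusted p = 4.84e-07).

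There were 5 members of the receptor list that fell, Ccr9, Itgae, Ccr4, Plxnd1 and Ccr8. Ccr9, the receptor for the thymic and intestinal chemokine CCL25, was at 300.0, 314, 284 and 268 CPM in SP8 and 134, 134, 142 and 138 CPM in CD8 (log2 fold change −1.09, SE 0.11, edgeR adjusted p = 3.92e-10). Itgae, which encodes CD103, the integrin that binds E-cadherin on epithelium, was at 533, 592, 485 and 504 CPM in SP8 and 187, 215, 172 and 190.0 CPM in CD8 (log2 fold change −1.47, SE 0.14, edgeR adjusted p = 1.38e-10). The libraries of the groups did not overlap for either gene. Ccr4, the receptor that draws selected thymocytes to the medulla, fell from 7.78 ± 1.31 to 0.978 ± 0.297 CPM. Plxnd1, a semaphorin receptor of thymocytes, fell from 25.4 ± 4.84 to 0.976 ± 0.321 CPM. Ccr8 was at 7.91, 8.68, 5.71 and 8.61 CPM in SP8 and at or under the floor in every CD8 library, at least 37.98-fold lower. Itgb7, the integrin beta chain that pairs with the products of Itgae and Itga4, rose from 739 ± 89.5 to 1026 ± 134 CPM with libraries that overlapped (log2 fold change 0.47, SE 0.13, edgeR adjusted p = 0.00241). Cd69, the early activation protein that holds S1PR1 inside the cell, did not pass the test at 55.1 ± 7.68 CPM in SP8 and 65.98 ± 5.53 CPM in CD8 (log2 fold change 0.26, SE 0.13, edgeR adjusted p = 0.105). It passed by DESeq2 and with DESeq2 size factors (0.33, adjusted p = 0.0319 in both), in an edgeR fit of the 8 libraries alone (0.32, adjusted p = 0.0156), with a filter of 5 CPM in 4 libraries (0.30, edgeR adjusted p = 0.0427) and without SP8 replicate 2 (0.34, edgeR adjusted p = 0.0439). Cxcr4, the CXCL12 receptor, did not pass either at 63.6 ± 15.6 CPM in SP8 and 74.3 ± 27 CPM in CD8 (log2 fold change 0.22, SE 0.20, edgeR adjusted p = 0.382). It passed without CD8 replicate 2 (0.44, edgeR adjusted p = 0.0459). In all, 13 of the 24 genes of the receptor and adhesion list were higher and 5 lower, with a median log2 fold change of 0.39. Of these, 11 and 5 had libraries that did not overlap. The list also holds the transcription factor Klf2. Klf2 and S1pr1, which served as markers of emigrating CD8 cells, are among both the 13 and the 11. Without SP8 replicate 2 there were 14 higher and 7 lower.

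**Figure D2:**
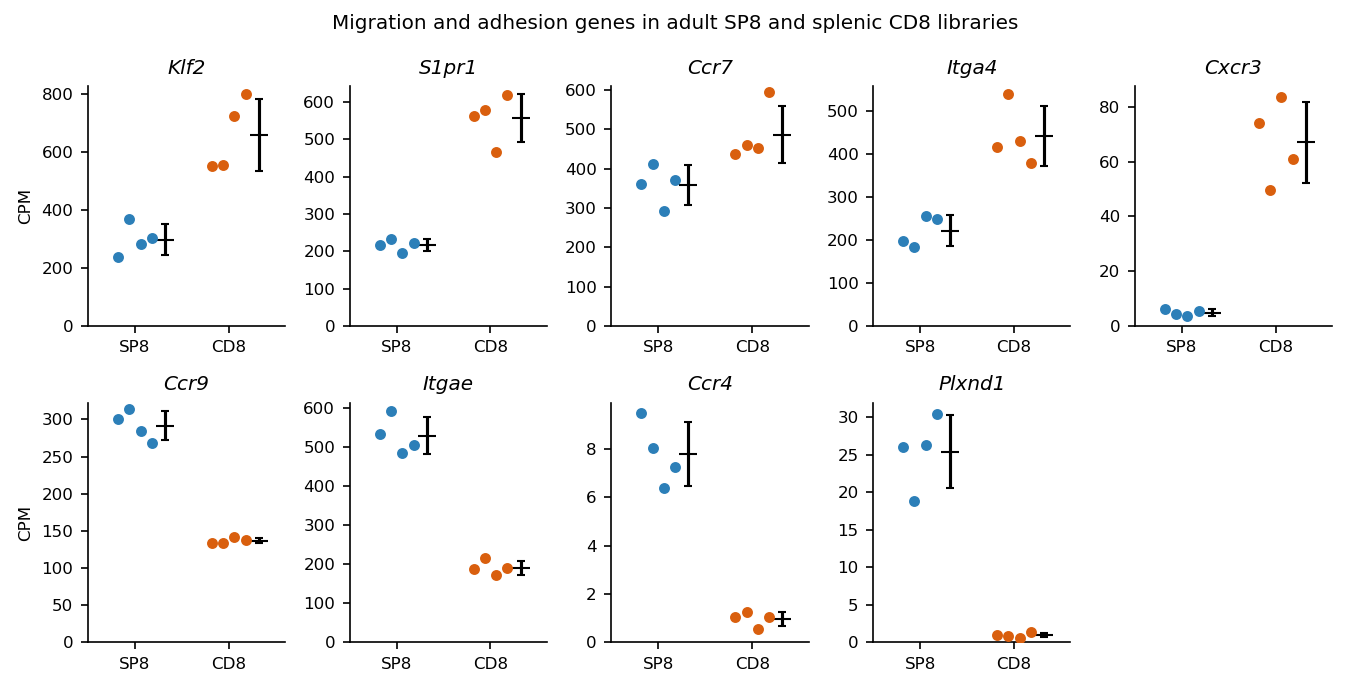
Level in CPM of 9 migration and adhesion genes in each adult SP8 (blue) and CD8 (orange) library, with the mean and SD (n = 4) beside the points. CD8 points lie above SP8 points for Klf2, S1pr1, Ccr7, Itga4 and Cxcr3 and below them for Ccr9, Itgae, Ccr4 and Plxnd1.

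The machinery behind these receptors changed less. Of 24 signalling genes of migration, 12 were higher and 3 lower (median 0.19), none of them by 2-fold. Without replicate 1 in both groups 7 were higher and 2 lower. Dock2, the Rac activator needed for lymphocyte motility, rose most in this list, from 462, 448, 445 and 497 CPM to 887, 917, 855 and 893 CPM (log2 fold change 0.94, SE 0.07, edgeR adjusted p = 1.99e-14). Stk4 (MST1), a kinase needed for thymic egress, rose from 476 ± 19.7 to 639.6 ± 14.5 CPM (log2 fold change 0.43, SE 0.07, edgeR adjusted p = 3.80e-06). The small GTPases of integrin activation moved apart. Rap1b rose from 388 ± 37.7 to 522 ± 34.7 CPM (log2 fold change 0.43). Rap1a fell from 196 ± 16.6 to 148 ± 11.1 CPM (log2 fold change −0.40), and the groups overlapped for neither gene. Rgs2, a brake on G-protein signalling, fell from 24 ± 3.33 to 16.1 ± 1.102 CPM (log2 fold change −0.58, SE 0.12, edgeR adjusted p = 1.09e-04).

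Cell cycle genes fell together. Of 54 tested, 52 were lower in CD8, each by at least 2-fold and without overlap. There was 1 gene higher and 1 not called, and the median log2 fold change was −4.19. Without SP8 replicate 2 there were again 52 lower and 1 higher. Mki67, the proliferation antigen Ki-67, was at 552, 244, 649 and 646 CPM in SP8 and 11.3, 3.87, 4.75 and 3.15 CPM in CD8 (log2 fold change −6.50, SE 0.40, edgeR adjusted p = 6.85e-13). Top2a, the topoisomerase that untangles replicated DNA, was at 686, 391, 671 and 682 CPM in SP8 and 14.04, 8.93, 9.25 and 11.3 CPM in CD8 (log2 fold change −5.80, SE 0.28, edgeR adjusted p = 1.22e-15). SP8 replicate 2 had the lowest SP8 value of both genes, and it was still many times above the highest CD8 value. The mitotic kinase gene Cdk1 fell from 47.8 ± 10.7 to 0.496 ± 0.406 CPM. Its partner Ccna2 (cyclin A2) fell from 101 ± 24.1 to 0.887 ± 0.307 CPM. The checkpoint kinase Bub1 fell from 44.4 ± 11.99 to 0.122 ± 0.12 CPM, and it was nearly undetected in splenic cells. The spindle motor Kif11 fell from 157 ± 37.8 to 1.47 ± 0.525 CPM. Ube2c, of the ubiquitin machinery that ends mitosis, fell from 44.6 ± 10.6 to 0.424 ± 0.12 CPM. Stmn1 (stathmin), which destabilizes microtubules, fell from 547 ± 36.7 to 12.5 ± 2.68 CPM. The helicase subunit Mcm5, used to license replication, kept more of its level, at 438 ± 56.8 CPM in SP8 and 64.3 ± 10.98 CPM in CD8 (log2 fold change −2.77, SE 0.13, edgeR adjusted p = 1.95e-19). Ccnd3 (cyclin D3) fell 2.02-fold from 442 ± 30.7 to 218 ± 16.5 CPM. Ccnd2 (cyclin D2) did not pass the test at 737 ± 81.4 CPM in SP8 and 636 ± 67.9 CPM in CD8 (log2 fold change −0.21, SE 0.16, edgeR adjusted p = 0.313). Cdc25b, a phosphatase that activates CDK1, was the member that rose, from 48.9 ± 1.798 to 68.6 ± 8.22 CPM (log2 fold change 0.49, SE 0.12, edgeR adjusted p = 0.00148).

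Beside these falls, the summed level of the 54 genes was 8635 to 11539.7 CPM in SP8 and 1882 to 2163 CPM in CD8, and it was lowest in the same SP8 library that was lowest in early thymocyte markers. In adult DP libraries, the stage before SP8, Mki67 averaged 86.9 CPM and Top2a 75.8 CPM, below the SP8 means of 523 and 608 CPM. Mcm5 averaged 80.7 CPM in DP and 438 CPM in SP8. The SP8 means of these genes were therefore above the DP and the CD8 means. Which cells in the SP8 libraries carried these transcripts, and at what stage of development they were, was not tested.

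Promoters of cell cycle genes often hold CCAAT boxes, the sites of the trimeric factor NF-Y. In the 250 bases before the annotated starts, CCAAT on either strand was found in 36 of the 48 promoters of the list's 44 matched genes (75.0%), against 33.8% of all 32851 mouse promoters in the RefSeq table (GRCm38.p6, the mm10 assembly). Among other lists of this report the share was 47.2% for quiescence regulators and 33.3% for the GIMAP family. It was 28.6% for interferon response genes and 12.5% for migration receptors. The stretches of 3 strongly lowered genes are shown because they hold several boxes each. Capitals mark CCAAT or its reverse complement ATTGG, and sequences run 5′ to 3′ on the gene's strand.
Mki67 promoter (chr7:135716496-135716587, minus strand): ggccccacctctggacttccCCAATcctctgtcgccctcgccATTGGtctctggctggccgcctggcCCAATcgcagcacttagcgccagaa
Top2a promoter (chr11:99024223-99024358, minus strand): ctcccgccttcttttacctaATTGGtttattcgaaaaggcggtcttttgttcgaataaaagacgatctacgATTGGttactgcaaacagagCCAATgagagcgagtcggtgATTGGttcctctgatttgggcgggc
Cdk1 promoter (chr10:69352939-69353012, minus strand): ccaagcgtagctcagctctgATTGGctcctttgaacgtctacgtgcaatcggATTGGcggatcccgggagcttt
These stretches hold 3, 4 and 2 boxes. They lie between 208 and 27 bases before the starts. A match of these letters describes the sequence and does not show that a factor was bound.

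Genes of thymocyte development, the machinery that rearranges receptors and guides lineage choice, fell with the cell cycle. Of 28 tested, 18 were lower and 3 higher (median −0.76), 17 and 2 of them without overlap, and 18 lower and 5 higher by DESeq2. Rag1, the recombinase subunit, lies on chromosome 2, 101638282 to 101649501, minus strand. It was at 275, 147, 251 and 270.4 CPM in SP8 and 1.65, 0.422, 0.813 and 0.1402 CPM in CD8 (log2 fold change −8.26, SE 0.40, edgeR adjusted p = 1.61e-15). Its adult DP mean was 6565 CPM. Its partner Rag2 was at 14.7, 5.52, 8.58 and 14.8 CPM in SP8 and at or under the floor in CD8, at least 53.5-fold lower. Dntt, which adds untemplated bases to receptor joints, fell from 392 ± 68.1 to 6.96 ± 1.32 CPM (log2 fold change −5.82, SE 0.18, edgeR adjusted p = 1.28e-23). Ptcra, the pre-TCR alpha chain, was 19.01 ± 2.88 CPM in SP8 and at or under the floor in CD8, at least 93.5-fold lower. The adult DP mean of Ptcra was 29.9 CPM, nearer to its SP8 mean than was the case for Rag1. Arpp21, a marker of DP cells, fell from 102 ± 20.9 to 0.313 ± 0.365 CPM. SP8 replicate 2 was lowest among SP8 libraries for Rag1, Rag2, Dntt, Ptcra and Arpp21. Cd24a (heat stable antigen), which declines as SP cells mature, fell 75.4-fold from 118, 73.1, 90.8 and 104 CPM to 1.65, 1.05, 1.06 and 1.33 CPM (log2 fold change −6.24, SE 0.14, edgeR adjusted p = 2.78e-28). Sox4, a factor of T cell development, fell from 252, 269.6, 239 and 206 CPM to 21.9, 20.7, 23.8 and 17.7 CPM (log2 fold change −3.52, SE 0.12, edgeR adjusted p = 5.18e-24). In SP8 it was not lowest in replicate 2.

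Lineage genes moved in both directions. Cd4 was low in both groups and fell from 6.5 ± 1.202 to 0.254 ± 0.241 CPM, in a sort for cells without CD4. Cd8b1, the CD8 beta chain, rose from 944 ± 149.6 to 1296 ± 130.5 CPM (log2 fold change 0.46, SE 0.10, edgeR adjusted p = 2.65e-04), unlike Cd8a above. Runx3, the factor that silences Cd4 and fixes the CD8 fate, rose from 144, 150.1, 169 and 145 CPM to 227, 164, 230.5 and 198 CPM with libraries that overlapped (log2 fold change 0.43, SE 0.10, edgeR adjusted p = 4.50e-04). Zbtb7a rose from 158 ± 15.8 to 248 ± 26.5 CPM without overlap. Satb1, the chromatin organizer of thymocytes, fell from 1031 ± 30.7 to 713 ± 44.3 CPM (log2 fold change −0.53, SE 0.08, edgeR adjusted p = 1.20e-06). Id3, an inhibitor of E proteins, fell 2.15-fold from 96.4 ± 15.2 to 44.8 ± 3.42 CPM. Tcf7 (TCF1) and Lef1, which keep naive T cells and their precursors, did not pass the test. Tcf7 was at 1738 ± 114 CPM in SP8 and 1528 ± 81.2 CPM in CD8 (log2 fold change −0.19, SE 0.08, edgeR adjusted p = 0.0721). Lef1 was at 294 ± 52.9 CPM in SP8 and 390.3 ± 49.2 CPM in CD8 (log2 fold change 0.41, SE 0.20, edgeR adjusted p = 0.0925). Both non-calls turned with the processing. Tcf7 was lower by limma-voom (−0.18, adjusted p = 0.0428), with total-count scaling (−0.21, edgeR adjusted p = 0.0374) and without SP8 replicate 2 (−0.24, edgeR adjusted p = 0.0275). Lef1 was higher by DESeq2 (0.48, adjusted p = 0.0359), in an edgeR fit of the 8 libraries alone (0.47, adjusted p = 0.00611) and without CD8 replicate 4 (0.52, edgeR adjusted p = 0.049). It was also higher by edgeR with no low-count filter (adjusted p = 8.79e-05) and with a filter of 5 CPM in 4 libraries (adjusted p = 0.0496).

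**Figure D3:**
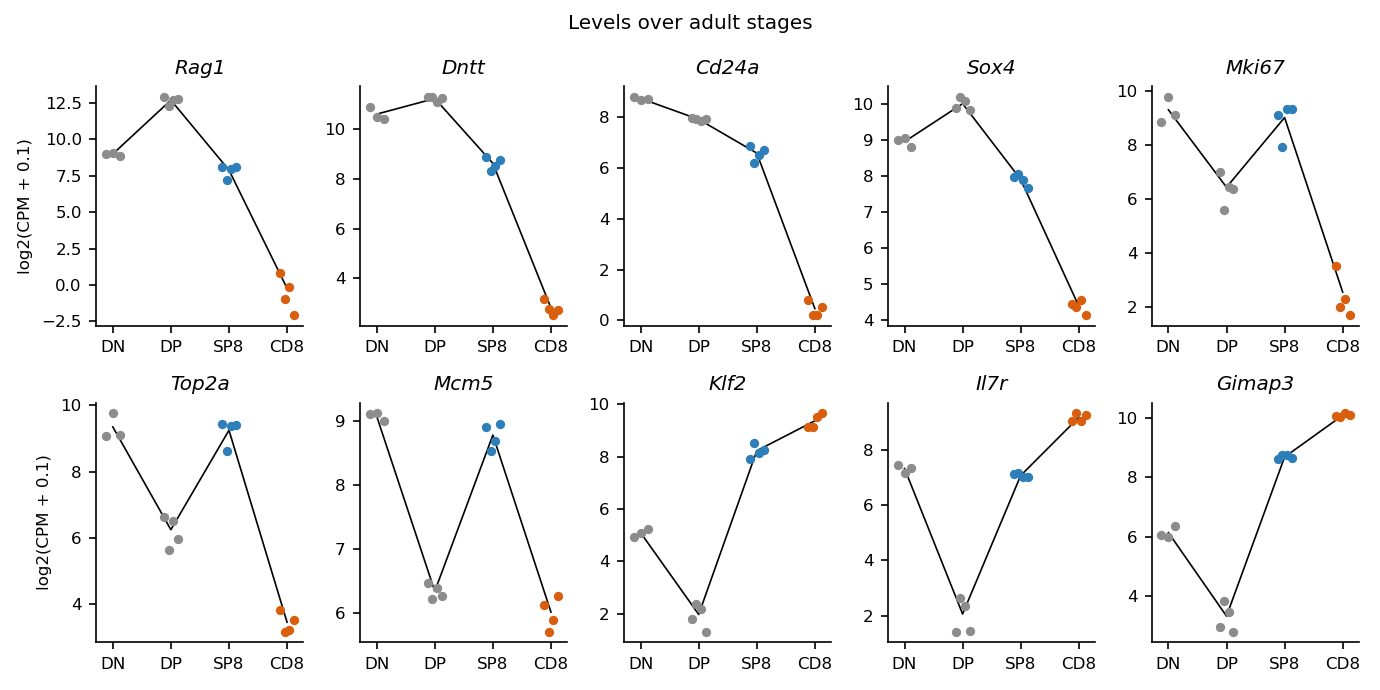
Log2 of CPM plus 0.1 in each adult library for 10 genes over the 4 stages, with a line through the means (DN, n = 3; DP, SP8 and CD8, n = 4 each). Mki67, Top2a and Mcm5 are lower in DP than in SP8 and lowest in CD8, while Klf2, Il7r and Gimap3 are lowest in DP and highest in CD8.

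Regulators of quiescence, which hold resting lymphocytes out of growth and division, rose. Of 30 tested, 20 were higher and 3 lower, all 23 without overlap (median 0.45). Klf3 and Klf6, relatives of Klf2, rose most among those named. Klf3 was at 89.5, 109, 122 and 98.2 CPM in SP8 and 279.9, 377, 306 and 314 CPM in CD8 (log2 fold change 1.61, SE 0.09, edgeR adjusted p = 6.50e-17). Klf6 rose from 42.95 ± 6.49 to 138 ± 11.97 CPM (log2 fold change 1.68, SE 0.10, edgeR adjusted p = 1.75e-16). Tsc22d3 (GILZ), a glucocorticoid-induced leucine zipper, rose from 85.99 ± 9.33 to 188 ± 30.2 CPM (log2 fold change 1.13). Txnip, which limits glucose uptake, rose from 296 ± 46.3 to 603 ± 60.2 CPM (log2 fold change 1.03). Pik3ip1, a brake on PI3 kinase, rose from 111 ± 15.5 to 213 ± 23.1 CPM (log2 fold change 0.94). Cdkn1b (p27), an inhibitor of cyclin-dependent kinases, rose from 132 ± 11.6 to 245 ± 14.3 CPM (log2 fold change 0.89). Foxo1, the factor upstream of Klf2 and Il7r, rose 1.38-fold from 233 ± 30.9 to 321 ± 20.4 CPM (log2 fold change 0.46, SE 0.09, edgeR adjusted p = 6.06e-05). Btg1, an antiproliferative gene, rose 1.49-fold from 576 ± 87.7 to 858 ± 77.97 CPM. There were 3 members that fell. Cdkn2c (p18), another kinase inhibitor, fell from 66.3 ± 9.38 to 4.42 ± 1.49 CPM (log2 fold change −3.91, SE 0.17, edgeR adjusted p = 1.53e-19). Mxd4, a MAX partner, fell from 288 ± 18.2 to 133 ± 18.5 CPM (log2 fold change −1.11, SE 0.09, edgeR adjusted p = 3.50e-13). Foxp4, a forkhead factor, fell from 118 ± 7.46 to 85.3 ± 12.3 CPM (log2 fold change −0.46, SE 0.10, edgeR adjusted p = 2.73e-04).

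Genes that mark the maturation of selected thymocytes and recent emigrants were more often higher than lower, with 10 of 20 tested genes higher and 5 lower (median 0.21). Over all tested genes 17.7% were higher and 27.3% lower. The summed level of the list was 2756 to 3111 CPM in SP8 and 3851 to 4246 CPM in CD8. Il7r, the interleukin 7 receptor alpha chain, was at 139, 142, 128 and 128 CPM in SP8 and 528, 636, 530.3 and 609.6 CPM in CD8, 4.298-fold higher (log2 fold change 2.10, SE 0.12, edgeR adjusted p = 1.33e-16). Cd55, a complement regulator that appears late in maturation, was at 5.77, 6.18, 4.24 and 6.46 CPM in SP8 and 68.5, 85.9, 73.2 and 80.1 CPM in CD8, 13.7-fold higher (log2 fold change 3.77, SE 0.16, edgeR adjusted p = 8.68e-21). The groups did not overlap for either gene. Ly6c2 rose from 43.2 ± 8.704 to 290.0 ± 18.9 CPM, and its near-identical neighbour Ly6c1 makes these counts uncertain. Dapl1, a gene of naive T cells, rose from 14.3 ± 4.79 to 92.8 ± 11.5 CPM. Nt5e (CD73), an ectoenzyme that makes adenosine, rose from 19.7 ± 3.198 to 65.2 ± 9.79 CPM. H2-Q7, of the Qa-2 antigens used to stage mature SP cells, rose 1.98-fold from 402 ± 32.05 to 795 ± 88.1 CPM, and its counts are uncertain since its copies are alike. Among the members that fell, Itm2a, a membrane protein of selected thymocytes, went from 65.5 ± 11.4 to 36.04 ± 2.17 CPM. Tnfrsf1b, a TNF receptor, fell from 137 ± 13.6 to 76.7 ± 3.43 CPM.

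All 8 tested members of the GIMAP family, GTPases of lymphocyte survival encoded in a cluster, rose without overlap, with a median log2 fold change of 0.94. Gimap3 had the largest change, from 386, 424, 427 and 398 CPM to 1071, 1026, 1128 and 1092 CPM (log2 fold change 1.40, SE 0.12, edgeR adjusted p = 2.50e-12). Gimap1 had the smallest, from 171, 219, 168 and 176 CPM to 258, 241, 262 and 297 CPM (log2 fold change 0.53, SE 0.09, edgeR adjusted p = 4.53e-06).

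Cytokine receptors and their signalling genes rose in 21 of 35 cases and fell in 5 (median 0.37), 20 and 5 without overlap. Il18r1, of the interleukin 18 receptor, had the largest rise in the list. It was at 8.62, 9.99, 9.37 and 7.04 CPM in SP8 and 119, 134, 135 and 116 CPM in CD8 (log2 fold change 3.84, SE 0.18, edgeR adjusted p = 1.48e-18). Its partner Il18rap, which the list does not hold, was at 4.21, 2.498, 1.62 and 2.15 CPM in SP8 and 49.8, 55.4, 49.02 and 39.5 CPM in CD8 (log2 fold change 4.22, SE 0.23, edgeR adjusted p = 9.86e-17). Il6ra, the interleukin 6 receptor, rose 4.28-fold from 65.99 ± 14.4 to 282 ± 15.02 CPM. Il10ra, for interleukin 10, rose 2.88-fold from 9.31 ± 0.7395 to 26.9 ± 3.05 CPM. Il4ra, for interleukin 4, rose 1.83-fold from 135 ± 7.42 to 246 ± 22.9 CPM. Il2rb, shared by the receptors for interleukins 2 and 15, rose from 204 ± 7.47 to 369 ± 33.6 CPM (log2 fold change 0.85, SE 0.12, edgeR adjusted p = 1.93e-07). Among signalling genes Stat4, used by interleukin 12, rose from 34.1 ± 4.46 to 95.4 ± 5.14 CPM. Socs3, a feedback inhibitor of gp130 receptors, rose from 38.5 ± 2.16 to 167 ± 25.9 CPM. Cish, a feedback inhibitor that STAT5 induces, fell 3.203-fold from 15.1 ± 0.693 to 4.71 ± 1.34 CPM (log2 fold change −1.68, SE 0.24, edgeR adjusted p = 2.32e-07). Tgfbr1, a TGF-beta receptor chain, fell from 68.96 ± 5.51 to 42.1 ± 6.52 CPM (log2 fold change −0.71, SE 0.10, edgeR adjusted p = 2.25e-07).

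Among genes that TCR signals induce in selected thymocytes more were lower than higher, as over all tested genes (27.3% lower, 17.7% higher, median −0.03). Of 35 immediate early and TCR response genes, 14 were lower and 6 higher (median −0.21), 11 and 1 of them without overlap. Without SP8 replicate 2 there were 13 lower and 7 higher, and the median was −0.04, close to the −0.03 over all tested genes in that fit. Nr4a1 (Nur77), a reporter of TCR signal strength, was at 69.6, 62.3, 78.2 and 60.6 CPM in SP8 and 22.1, 20.2, 28.4 and 21.2 CPM in CD8 (log2 fold change −1.56, SE 0.12, edgeR adjusted p = 2.11e-13). Egr1, a factor of the first wave after a signal, fell from 112 ± 10.9 to 57.8 ± 1.697 CPM (log2 fold change −0.96). Its relative Egr2 fell from 25.04 ± 1.999 to 12.2 ± 1.99 CPM (log2 fold change −1.04). Ikzf2 (Helios), which strong TCR signals raise in thymocytes, was at 166, 145, 188 and 119 CPM in SP8 and 17.4, 16.2, 13.6 and 8.902 CPM in CD8, 11.02-fold lower (log2 fold change −3.46, SE 0.20, edgeR adjusted p = 6.19e-15). Pdcd1 (PD-1), an inhibitory receptor, fell from 16.2 ± 1.49 to 1.62 ± 0.489 CPM. Dusp4, a phosphatase of MAP kinases, fell from 14.9 ± 1.94 to 2.38 ± 0.757 CPM. Tnfrsf9 (4-1BB), a costimulatory receptor, fell from 32.7 ± 5.37 to 12.3 ± 1.65 CPM.

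The AP-1 genes Jun and Junb went the other way and varied between libraries. Jun was at 19.3, 85.98, 17.8 and 24.1 CPM in SP8 and 88.2, 142, 77.97 and 157 CPM in CD8 (log2 fold change 1.67, SE 0.52, edgeR adjusted p = 0.0111). Junb was at 109.7, 324, 108 and 132 CPM in SP8 and 267, 392, 264 and 392 CPM in CD8 (log2 fold change 0.97, SE 0.28, edgeR adjusted p = 0.00695). SP8 replicate 2 was well above the other SP8 libraries in both, and the groups overlapped. The summed level of the list was 3659.5 CPM in that library and 2543.5 to 2608.8 CPM in the other SP8 libraries. In the CD8 libraries it was 2574 to 2969 CPM, so the sums of the groups overlapped. Without SP8 replicate 2 the log2 fold changes were 2.51 for Jun and 1.49 for Junb. In the fit of the 8 libraries alone neither passed (edgeR adjusted p = 0.0591 for Jun and 0.0902 for Junb). The count of higher genes in this list was 3 without SP8 replicate 1 or 3, 2 without SP8 replicate 4 and 2 without replicate 1 in both groups.

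Of 37 components of the TCR signalling chain, 14 were higher, 3 lower and 20 not called (median 0.04), and Trat1 alone among them was called at 2-fold or more. Malt1, the paracaspase of the NF-kB branch, rose from 103 ± 5.56 to 200.5 ± 9.73 CPM (log2 fold change 0.96, SE 0.08, edgeR adjusted p = 2.16e-12). Dgka, an inhibitory member that removes diacylglycerol, rose from 755 ± 50.3 to 1329.7 ± 57.7 CPM (log2 fold change 0.82). Ptpn22, an inhibitory phosphatase, rose from 173 ± 2.26 to 288 ± 11.2 CPM (log2 fold change 0.73). Of the CD3 chains, Cd3g fell from 744 ± 114 to 544 ± 32.1 CPM (log2 fold change −0.45, SE 0.10, edgeR adjusted p = 1.99e-04). Cd3e did not pass at 366 ± 48.4 CPM in SP8 and 339.8 ± 38.5 CPM in CD8 (log2 fold change −0.11, SE 0.12, edgeR adjusted p = 0.4904). Trat1, an adaptor that stabilizes the TCR complex, fell 2.32-fold from 57.02 ± 7.35 to 24.6 ± 5.39 CPM.

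More interferon response genes were lower than higher, as over all tested genes (27.3% lower, 17.7% higher, median −0.03). Of 47 tested, 23 were lower and 8 higher (median −0.48), 22 and 7 of them without overlap. Antiviral genes that type I interferon induces were among the lower ones. Isg15, a ubiquitin-like modifier, lies on chromosome 4, 156199424 to 156200818, minus strand. It was at 36.5, 55.5, 39.1 and 28.2 CPM in SP8 and 12.7, 17.02, 8.69 and 13.5 CPM in CD8 (log2 fold change −1.62, SE 0.20, edgeR adjusted p = 2.39e-08). Ifit1, which binds foreign RNA, was at 71.8, 85.2, 64.3 and 54.2 CPM in SP8 and 20.2, 28, 17.4 and 24.5 CPM in CD8 (log2 fold change −1.61, SE 0.21, edgeR adjusted p = 1.88e-07). Each SP8 library lay above each CD8 library for both genes. Ifit3, of the same family, fell from 72.7 ± 15.4 to 31.3 ± 10.7 CPM. Mx1, a GTPase active against viruses, fell from 29.7 ± 3.89 to 15.6 ± 2.57 CPM. Ifi44 fell from 6.44 ± 1.43 to 0.754 ± 0.539 CPM. Irf7, which amplifies type I interferon signals, fell from 142 ± 11.7 to 77.4 ± 8.603 CPM. Guanylate-binding proteins and related GTPases, which interferon gamma also induces, were among the higher genes, with Gbp2, Gbp3, Gbp5, Gbp7 and Gbp8 higher and Gbp6 lower. Gbp2 rose from 67.5 ± 6.65 to 97.6 ± 7.63 CPM (log2 fold change 0.53, SE 0.11, edgeR adjusted p = 7.98e-05). Gbp5 rose from 24.9 ± 2.58 to 42.9 ± 3.82 CPM (log2 fold change 0.78, SE 0.14, edgeR adjusted p = 8.97e-06). Irgm2, an immunity-related GTPase, rose from 40.1 ± 8.87 to 70.8 ± 4.64 CPM (log2 fold change 0.82, SE 0.11, edgeR adjusted p = 1.96e-07). Irf1, a factor that both interferon types induce, rose from 172 ± 12.9 to 272 ± 24.9 CPM. Ifit1bl1, a close relative of Ifit1, rose from 41.5 ± 3.11 to 84.9 ± 7.402 CPM. Several Ifit and Gbp genes have near-identical copies, so the split of reads between them is uncertain.

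**Figure D4:**
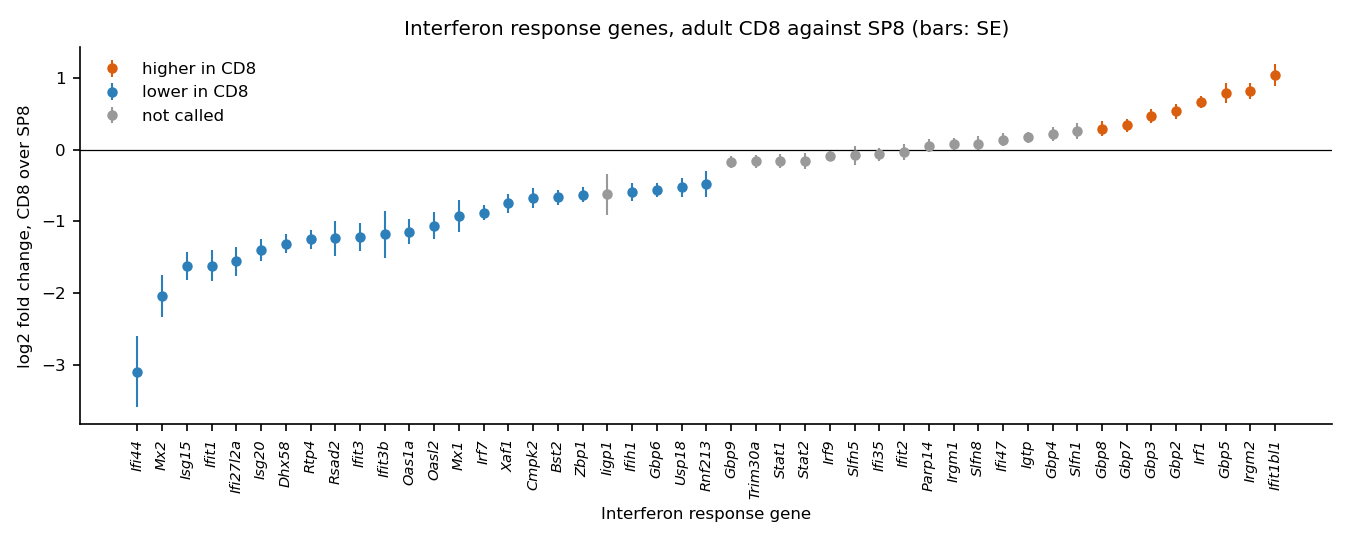
Log2 fold change (CD8 over SP8, adults) with its SE for the 47 tested interferon response genes, ordered by size and coloured by the edgeR call (Benjamini-Hochberg adjusted p below 0.05). The 23 lower genes reach −3.09 at Ifi44, and the 8 higher genes reach 1.03 at Ifit1bl1.

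Promoters of genes in both directions held the core of the interferon-stimulated response element, a pair of TTTC repeats with 2 bases of any kind between them, searched on both strands. It was found in the 250 bases before 21 of the 42 promoters of 33 matched list genes (50%), against 2.98% of the 32851 promoters in the table. By call, it was found for 6 of 7 higher genes, 7 of 15 lower genes and 6 of 11 genes that were not called. The stretches below are shown since genes that fell (Isg15, Ifit1, Ifit3) and genes that rose (Gbp5, Irgm2) carry the same core, which is in capitals.
Isg15 promoter (chr4:156200855-156200916, minus strand): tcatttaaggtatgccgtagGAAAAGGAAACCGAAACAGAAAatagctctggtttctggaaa
Ifit1 promoter (chr19:34640765-34640833, plus strand): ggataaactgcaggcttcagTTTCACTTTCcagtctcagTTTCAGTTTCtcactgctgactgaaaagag
Ifit3 promoter (chr19:34583353-34583436, plus strand): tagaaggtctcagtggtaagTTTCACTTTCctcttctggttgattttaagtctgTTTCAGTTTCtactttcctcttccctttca
Gbp5 promoter (chr3:142496749-142496798, plus strand): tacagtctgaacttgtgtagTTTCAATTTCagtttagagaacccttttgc
Irgm2 promoter (chr11:58214893-58214942, plus strand): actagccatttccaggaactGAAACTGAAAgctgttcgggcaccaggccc
The Isg15 stretch holds 3 overlapping matches, those of Ifit1 and Ifit3 hold 2 each, and those of Gbp5 and Irgm2 hold 1 each. In all, 17 patterns were searched over 5 of the lists. The KLF-type box CCACCC was in 6 of 16 promoters of the migration receptor list (37.5%), against 28.1% of all promoters. It was above that share in each of the 5 lists and so is not particular to migration genes. The shares were 55.6% for the GIMAP family, 38.9% for quiescence regulators, 35.4% for cell cycle genes and 33.3% for interferon response genes.

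MHC class I genes, which the interferon factors and NLRC5 control, rose in 10 of 23 cases and fell in 3 (median 0.15). The heavy chain genes H2-K1 and H2-D1 both rose. H2-K1 was at 2703, 3197, 2592 and 2669.5 CPM in SP8 and 4542, 3803, 5020.1 and 5500.2 CPM in CD8, 1.69-fold higher (log2 fold change 0.76, SE 0.12, edgeR adjusted p = 1.48e-06). H2-D1 rose 1.697-fold from 1964 ± 275 to 3332 ± 349.9 CPM (log2 fold change 0.76, SE 0.10, edgeR adjusted p = 2.22e-08). Their light chain B2m rose from 1506 ± 249.6 to 2034 ± 182 CPM (log2 fold change 0.43, SE 0.10, edgeR adjusted p = 5.65e-04). Nlrc5, their transactivator, rose from 371 ± 45.4 to 486 ± 33.8 CPM (log2 fold change 0.39, SE 0.10, edgeR adjusted p = 0.00143). Such genes have close copies, so the split of reads among heavy chains is uncertain. The peptide transporter gene Tap1 did not pass at 430.4 ± 37.01 CPM in SP8 and 476 ± 27.5 CPM in CD8 (log2 fold change 0.15, SE 0.08, edgeR adjusted p = 0.127). It passed by DESeq2 (0.22, adjusted p = 0.00922), with DESeq2 size factors (0.22, edgeR adjusted p = 0.0165), with a filter of 5 CPM in 4 libraries (0.19, edgeR adjusted p = 0.024) and without CD8 replicate 2 (0.20, edgeR adjusted p = 0.0494) or SP8 replicate 2 (0.20, edgeR adjusted p = 0.0361). The members that fell were Pdia3, Calr and Canx, folding factors of the endoplasmic reticulum. Calr (calreticulin) fell from 545 ± 27.1 to 416 ± 27.9 CPM. Canx (calnexin) fell from 376 ± 33.9 to 252 ± 9.68 CPM.

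Effector and memory-like genes changed in both directions. Of 34 tested, 16 were higher and 8 lower (median 0.64), 16 and 6 without overlap. With a minimum of 5 CPM in 4 libraries 10 were higher and 6 lower. The T-box factors of effector and memory CD8 cells were higher. Eomes was at 19.8, 26.2, 20.3 and 20.02 CPM in SP8 and 130.1, 98, 127 and 137 CPM in CD8 (log2 fold change 2.51, SE 0.16, edgeR adjusted p = 8.48e-14). Tbx21 (T-bet) was at 3.95, 4.14, 4.55 and 3.46 CPM in SP8 and 38.2, 25.3, 47.4 and 35.7 CPM in CD8 (log2 fold change 3.18, SE 0.21, edgeR adjusted p = 4.56e-15). Ccl5, a chemokine of memory cells, rose 7.86-fold from 8.13 ± 1.64 to 63.9 ± 5.55 CPM. The lectin receptor Klrd1 (CD94) rose 4.34-fold from 33.8 ± 4.57 to 147 ± 10.9 CPM. Klrk1 (NKG2D), an activating receptor, rose 7.88-fold from 3.799 ± 1.21 to 30.1 ± 7.97 CPM. Of the killing machinery, Prf1 (perforin) rose from 41.4 ± 6.8 to 111 ± 9.91 CPM. Gzmm (granzyme M) rose from 1.33 ± 0.746 to 13.7 ± 3.27 CPM. Others fell. Gzma (granzyme A) was at 52.96, 44.4, 43.3 and 62.3 CPM in SP8 and 2.06, 1.76, 2.13 and 1.33 CPM in CD8 (log2 fold change −4.79, SE 0.20, edgeR adjusted p = 2.24e-19). Anxa2 (annexin A2) fell 11.8-fold from 152 ± 21.2 to 12.9 ± 0.518 CPM. Lgals1 (galectin 1) fell 3.52-fold from 179 ± 30.4 to 50.9 ± 7.59 CPM. Il12rb2, the inducible interleukin 12 receptor chain, fell 9.44-fold from 7.25 ± 0.927 to 0.764 ± 0.2698 CPM. Beside these changes stand the rise of Cd44 and the marker sums above. NK markers other than Gzma were higher in CD8 at under 9 CPM, with Ncr1 at or under the floor, and gamma-delta markers were higher in SP8. Their part in these changes was not tested.

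Genes of costimulation and coinhibition were higher in 13 of 27 cases and lower in 5 (median 0.30). Slamf7, a receptor of the SLAM family, rose 4.39-fold from 3.49 ± 0.831 to 15.4 ± 2.48 CPM. Tnfsf8 (CD30 ligand) rose 3.54-fold from 20.4 ± 2.29 to 72.3 ± 2.27 CPM. Ctla4, an inhibitory receptor for B7 proteins, fell 3.18-fold from 5.104 ± 0.908 to 1.61 ± 0.329 CPM. Cd200, a ligand that restrains myeloid cells, fell 4.26-fold from 16.6 ± 1.74 to 3.903 ± 0.725 CPM. Icos, a costimulator related to CD28, fell 1.58-fold from 51.5 ± 5.87 to 32.5 ± 3.52 CPM.

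Apoptosis regulators had no common direction, with 7 of 29 higher and 8 lower (median −0.01). Bbc3 (PUMA), a BH3-only killer, rose from 17.4, 20.7, 16.02 and 13.2 CPM to 56.2, 45.2, 56.96 and 76.96 CPM (log2 fold change 1.81, SE 0.14, edgeR adjusted p = 3.06e-13). Bmf, another, fell from 29.6, 27.7, 24.7 and 32.5 CPM to 8.12, 2.04, 6.13 and 6.59 CPM (log2 fold change −2.32, SE 0.20, edgeR adjusted p = 4.59e-11). Bcl2l1 (BCL-XL), the protector of DP cells, fell from 44.3 ± 6.64 to 19.7 ± 1.84 CPM (log2 fold change −1.17, SE 0.10, edgeR adjusted p = 1.54e-12). Bcl2, the protector of mature cells, did not pass at 244 ± 11.02 CPM in SP8 and 262 ± 19.96 CPM in CD8 (log2 fold change 0.11, SE 0.09, edgeR adjusted p = 0.374).

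In metabolic gene lists more genes were lower than higher, and most glycolysis genes were lower. Over all tested genes 27.3% were lower and 17.7% higher. Of 20 glycolysis genes 12 were lower and 4 higher (median −0.65). Gapdh was at 1227, 1116, 1007 and 1212 CPM in SP8 and 462, 408, 447 and 546 CPM in CD8 (log2 fold change −1.29, SE 0.10, edgeR adjusted p = 1.99e-13). Ldha, a lactate dehydrogenase chain, fell 1.77-fold from 796 ± 75.7 to 451 ± 58.9 CPM. Ldhb, the other chain, fell 4.65-fold from 46.9 ± 3.204 to 10.1 ± 0.958 CPM. Hk2, the inducible hexokinase, fell from 15.8 ± 2.98 to 5.37 ± 0.539 CPM. Slc2a1 (GLUT1), the glucose transporter, rose from 36.9 ± 3.37 to 52.4 ± 6.68 CPM (log2 fold change 0.51). Aldoa (aldolase A) rose from 238 ± 13.3 to 355 ± 41.2 CPM (log2 fold change 0.58). Of 28 cholesterol synthesis genes 12 were lower and 3 higher (median −0.16), and 11 and 5 by DESeq2. Without CD8 replicate 1 there were 9 lower and 3 higher. Idi1 fell 2.49-fold from 21.03 ± 5.06 to 8.45 ± 1.796 CPM without overlap. Srebf2, the factor that induces the pathway, rose from 259 ± 23.6 to 316 ± 24.6 CPM (log2 fold change 0.29, SE 0.08, edgeR adjusted p = 0.00353). Of 20 chaperones 8 were lower and 2 higher (median −0.16). By edgeR 0 were higher without CD8 replicate 3 or without SP8 replicate 3. Hsp90aa1, the inducible HSP90, fell 2.55-fold from 763 ± 105 to 299 ± 43.2 CPM. Hspd1, the mitochondrial chaperonin, fell 2.09-fold from 376 ± 46.8 to 179.6 ± 14.7 CPM. Hsp90ab1, the constitutive HSP90, fell 1.503-fold from 3005 ± 94.9 to 1999 ± 255 CPM.

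The 12 genes with the largest change each way were named, among called genes whose groups did not overlap and whose higher mean was 10 CPM or more. The rises were Prss12 (log2 fold change 5.38), Ifngas1 (4.74), Cxcr5, Gas7 (4.35), Il18rap, Rhob (4.16), Plek (4.02), Ust (3.92), Ppm1j (3.89), Il18r1, Samd3 (3.83) and Cxcr3. Prss12, a serine protease, was at 0.324, 0.657, 0.105 and 0.196 CPM in SP8 and 15, 12.03, 11.7 and 14.2 CPM in CD8 (log2 fold change 5.38, SE 0.48, edgeR adjusted p = 2.06e-11). Plek (pleckstrin), a protein kinase C substrate of blood cells, was at 2.53, 1.91, 1.41 and 2.35 CPM in SP8 and 36.1, 28.8, 35.3 and 31.4 CPM in CD8 (log2 fold change 4.02, SE 0.24, edgeR adjusted p = 1.78e-16). Rhob, a small GTPase of endosomes, rose from 0.588 ± 0.309 to 10.4 ± 2.73 CPM. Ifngas1 is an antisense RNA, and its counts are uncertain since the use of strand is not known. The falls were Arsi, Nwd1, Kif14, Gpr162, Dgkeos, Fads2, Bub1, Pbk, Camkv, Arpp21, Rag1 and Syt13. Arsi, a sulfatase, was at 23.5, 10.4, 21.8 and 29.8 CPM in SP8 and had 0 counts in the CD8 libraries, at least 105-fold lower. Kif14, a motor of cell division, was at 29.3, 15.7, 36.6 and 26.9 CPM in SP8 and at or under the floor in CD8, at least 133-fold lower. By the same bound Nwd1 was at least 77.9-fold, Gpr162 51.9-fold, Camkv 63.5-fold and the antisense RNA Dgkeos 115-fold lower. Pbk, a mitotic kinase, fell from 47.6 ± 14.03 to 0.139 ± 0.148 CPM. Fads2, a fatty acid desaturase, fell from 38.4 ± 10.9 to 0.1001 ± 0.131 CPM. Syt13, a synaptotagmin, fell from 57.8 ± 11.2 to 0.19 ± 0.288 CPM. SP8 replicate 2 was lowest in SP8 for each of the 12 named falls.

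In absolute terms the called genes with the largest rises in CPM were Eef1a1, mt-Co1, H2-K1, Tpt1 and Eef2. Eef1a1, an elongation factor of translation, rose from 10795 ± 1205 to 13499.6 ± 952 CPM (log2 fold change 0.32). Eef2, another, rose from 5357 ± 509 to 6859.9 ± 686 CPM (log2 fold change 0.36). Tpt1, a translationally controlled growth gene, rose from 2362 ± 458 to 3912 ± 515 CPM (log2 fold change 0.73, SE 0.11, edgeR adjusted p = 1.20e-06). The mitochondrial gene mt-Co1 was at 6779.6, 7695, 4831 and 7761 CPM in SP8 and 7105, 10896, 7206 and 9737 CPM in CD8 with overlap (log2 fold change 0.37, SE 0.15, edgeR adjusted p = 0.0375). That call was lost without CD8 replicate 2 (0.27), CD8 replicate 4 (0.34), SP8 replicate 1 (0.37) or SP8 replicate 3 (0.24). The largest falls in CPM were those of Ptma, Hsp90ab1, Hnrnpa2b1, Hmgb2 and Hnrnpa3. Ptma (prothymosin alpha), a chromatin protein, fell from 2932 ± 224 to 995 ± 95.6 CPM. Hmgb2, another, fell from 813 ± 97.2 to 97.7 ± 3.75 CPM. The RNA-binding Hnrnpa2b1 fell from 1921 ± 159 to 1095 ± 75.7 CPM. Its relative Hnrnpa3 fell from 1540.3 ± 61.5 to 829.7 ± 63.4 CPM.

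Whether the step differs with age was tested against the SP8 and CD8 libraries of neonatal C57BL/6 mice of 5 to 7 days, 4 of each. The neonatal change from SP8 to CD8 minus the adult change was called for 2525 of 16461 genes (15.3%) by edgeR (Benjamini-Hochberg), above 0 for 1678 (10.2%) and below 0 for 847 (5.15%). The exit genes Klf2 and S1pr1 gave no difference that passed. The interaction is the neonatal minus the adult log2 fold change. Klf2 averaged 223 CPM in SP8 and 457 CPM in CD8 in neonates (interaction −0.11, SE 0.24, edgeR adjusted p = 0.8398). S1pr1 averaged 159.8 CPM in SP8 and 481 CPM in CD8 in neonates (interaction 0.23, SE 0.16, edgeR adjusted p = 0.3699). Other genes that rose in adults rose more in neonates. Gimap3 went from 136 to 795 CPM in neonates (interaction 1.14, SE 0.16, edgeR adjusted p = 5.54e-06). H2-K1 went from 1099 to 2992 CPM (interaction 0.69, SE 0.17, edgeR adjusted p = 0.00328). H2-Q7 was far lower in neonates at both stages and went from 23.6 to 158 CPM (interaction 1.75, SE 0.22, edgeR adjusted p = 1.86e-06). Il7r did not pass (interaction 0.46, SE 0.17, edgeR adjusted p = 0.0582). It passed in an edgeR fit of the 16 libraries alone (0.42, adjusted p = 0.0109), by limma-voom (0.46, adjusted p = 0.0147), with no low-count filter (0.46, edgeR adjusted p = 0.00817) and with total-count scaling (0.48, edgeR adjusted p = 0.0462). It also passed without adult CD8 replicate 2 or 4 or neonatal CD8 replicate 2, with values from 0.50 to 0.55.

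Several genes that fell in adults changed less in neonates. Ccr9 was at 126 CPM in SP8 and 128 CPM in CD8 in neonates, against the fall from 292 to 137 CPM in adults (interaction 1.13, SE 0.16, edgeR adjusted p = 4.08e-06). Itgae was at 225 CPM in SP8 and 225 CPM in CD8 in neonates, against 528 and 191 CPM in adults (interaction 1.47, SE 0.19, edgeR adjusted p = 2.06e-06). In both genes the neonatal SP8 mean was below the adult one and the CD8 means of the ages were close. Ikzf2 went in neonates from 119.6 to 61.2 CPM (interaction 2.50, SE 0.26, edgeR adjusted p = 6.42e-08). Sox4 went from 220.0 to 64.3 CPM (interaction 1.75, SE 0.15, edgeR adjusted p = 2.05e-10). Mki67 went from 1042 to 79.02 CPM (interaction 2.78, SE 0.47, edgeR adjusted p = 1.75e-04). Adult CD8 had 5.76 CPM of Mki67. The 3 highest interactions were those of Kif14, Adamtsl2 and Kif4. They were 5.12 for Kif14, 4.79 for Adamtsl2 and 4.11 for Kif4. Adult CD8 libraries were near or under the floor for these genes, so that the fitted values depend on the prior count and give no bound.

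For other genes the neonatal change lay below the adult one. Dntt went from 189 to 1.17 CPM (interaction −1.53, SE 0.31, edgeR adjusted p = 5.07e-04). Ifit3 went from 47.2 to 5.95 CPM (interaction −1.78, SE 0.29, edgeR adjusted p = 3.71e-05). Cxcr4, which did not pass in adults, went from 66.8 to 23.9 CPM in neonates (interaction −1.70, SE 0.28, edgeR adjusted p = 1.16e-04). Idi1, of cholesterol synthesis, went from 49.02 to 5.05 CPM (interaction −1.96, SE 0.25, edgeR adjusted p = 8.11e-07). The 2 lowest interactions were those of Evc (−7.78) and Snrpn (−4.97). In adults Evc was at 0 counts in the SP8 libraries and at 1.79, 0.914, 1.63 and 1.54 CPM in CD8, at least 7.96-fold higher. Snrpn was at or under the floor in SP8 and at least 8.41-fold higher in CD8. The fitted interactions of both depend on the prior count. Neonatal means were 18 CPM in SP8 and 16.7 CPM in CD8 for Evc and 10.5 CPM in SP8 and 23.03 CPM in CD8 for Snrpn.

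**Figure D5:**
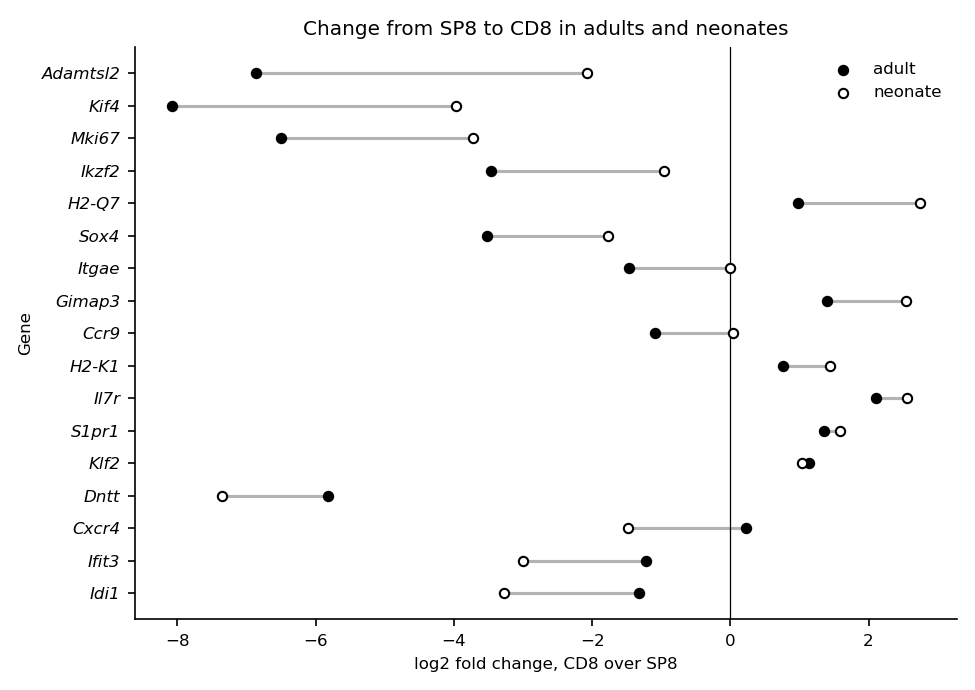
Log2 fold change from SP8 to CD8 in adults (filled) and neonates (open), 4 libraries per group, for 17 genes. Klf2 and S1pr1 lie close together at both ages, Ccr9 and Itgae are below 0 in adults and at about 0 in neonates, and Idi1 is lower in neonates.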

How the data were processed

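RNA was sequenced from sorted thymocyte and splenic CD8 populations of C57BL/6 mice, and 8 of 31 libraries enter the adult comparison. Reads were trimmed with Trim Galore and aligned to mm10 with STAR 2.7.10a, per the submitters' processing notes. The deposited table holds raw counts per gene for 53700 gene IDs. The counting tool, annotation release and use of strand were not given in the sources used here. Symbols and positions came from GENCODE M21 (GRCm38, the mm10 assembly), which named 52093 IDs (97.0%).

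Counts were scaled by TMM and tested with edgeR 4.0.16 (R 4.3.3) by robust quasi-likelihood fits over group means of all 31 libraries, so that groups share 1 estimate of spread. Genes passed filterByExpr (minimum count 10), which left 16461. P-values were adjusted by Benjamini-Hochberg over these, with a threshold of 0.05. SEs were derived from the F statistic as |log2 fold change|/√F. CPM values are TMM-scaled. A group with every library at or under 3 counts was taken as at or under the floor, and bounds were computed against 3 counts per library. Floors and bounds cover counting error only.

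Named genes were the 12 largest rises and falls among called genes with 10 CPM or more in the higher group and no overlap, the 5 largest CPM differences each way, and the 3 highest and lowest interactions under the same 10 CPM minimum. Predicted genes, pseudogenes and receptor segments were left out, and list members were described beside them. Some genes under these rules are not reported here. Members and lists were chosen with earlier results of these data known. Alternatives were DESeq2 1.42.0, its size factors, limma-voom 3.58.1, total-count scaling, other filters, the 8 libraries alone, a replicate block and leaving out libraries. Promoters came from the RefSeq table (GRCm38.p6), searched on both strands for 17 patterns, and S1pr1 and Ccr7 were not analysed there. The edgeR fit was also run on simulated counts with 67, 67 and 66 genes changed 1.5-, 2- and 4-fold, of 16028 tested. It found 55, 64 and 66 of them and called 0.0316% of the unchanged genes. Far fewer genes changed there than were called here, so it cannot show how scaling affects the split of higher and lower genes.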

Additional observations from a re-analysis of the deposited data

Results flagged for a closer look

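Among 362 groups of 4 libraries checked over the named genes, 31 held a library whose gap to the nearest of the others, as a share of the group's range, was past Dixon's critical value, which chance gives for about 1 group in 20. Of these, 16 fell on SP8 replicate 2. In that library S1pr4 was at 191.3 CPM (the other SP8 libraries at 151.4 to 157.6), Rap1b at 444.7 (364.7 to 372.6), Txnip at 364.8 (267.8 to 277.1), Gimap1 at 218.6 (167.9 to 176.4) and Il6ra at 87.62 (58.02 to 59.78), each above the other SP8 libraries. Also high there were Jun at 85.98 CPM (17.8 to 24.06), Junb at 323.5 (108.3 to 131.6), Irf7 at 159.4 (134.7 to 138.9), Eomes at 26.16 (19.84 to 20.26) and the B cell gene Cd79b at 12.75 (9.631 to 10.11). Low there were Top2a at 391.4 CPM (670.6 to 686.3), Cdk1 at 31.81 (52.24 to 53.66), Bub1 at 26.62 (48.29 to 52.22), Kif11 at 101.2 (170.5 to 183.1), Epcam at 4.798 (6.194 to 6.418) and Syt13 at 41.21 (61.24 to 65.15).

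The other 15 were spread over 6 libraries. In SP8, replicate 3 had Malt1 at 111.2 CPM (99.45 to 100.7 in the others), and replicate 4 had Itga6 at 66.05 CPM, Ccl5 at 10.56 CPM and H2-Aa at 4.303 CPM. In CD8, replicate 1 had Cdk1 at 1.101 CPM, Syt13 at 0.6194 CPM and Epcam at 2.34 CPM, and replicate 3 had Gpr162 at 0.06252 CPM against 0 in the others. CD8 replicate 2 had Icos at 37.78 CPM, Nwd1 at 0.07035 CPM, Hnrnpa2b1 at 982.3 CPM (1118.8 to 1139.7 in the others) and Klre1 at 3.025 CPM (5.327 to 5.69). CD8 replicate 4 had Ccr7 at 595.5 CPM (438.0 to 461.1), Il10ra at 31.47 CPM (25.2 to 25.47) and Kif14 at 0 CPM. The values of Nwd1, Gpr162 and Kif14 are of 1 count or none.

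The change from SP8 to CD8 differed between neonates and adults for 17 of 20 named genes, by the interaction test of edgeR. These genes include the most extreme called interactions, and the others were chosen with results known, so this count is no rate. Over all 16461 tested genes the interaction was called for 2525 (15.3%). The neonatal minus adult log2 change was above 0 for Kif14 (5.12), Adamtsl2 (4.79), Kif4 (4.11), Mki67 (2.78), Ikzf2 (2.50), H2-Q7 (1.75), Sox4 (1.75), Itgae (1.47), Gimap3 (1.14), Ccr9 (1.13) and H2-K1 (0.69). It was below 0 for Evc (−7.78), Snrpn (−4.97), Idi1 (−1.96), Ifit3 (−1.78), Cxcr4 (−1.70) and Dntt (−1.53).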

How the results depend on the processing

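For the adult comparison the count of called genes lay between 6052 and 7808 over the other scalings, filters and tools, with 7410 in the reported fit, and between 6754 and 7281 when 1 library was left out (higher 2572 to 2979, lower 4041 to 4441). Asking for a 2-fold change left 2654 genes, 796 higher and 1858 lower. Of 3065 values of 181 named genes under the alternatives, 3031 kept their direction and their side of the threshold. The direction of Cd8a, which did not pass, turned with DESeq2 size factors (0.011), DESeq2 (0.011), the 8 libraries alone (0.002) and the replicate block (0.004), and the cause was not tested. Calls of Jun and Junb were lost in the fit of 8 libraries, and that of mt-Co1 there and without any 1 of 4 libraries.

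The age interaction gave 2182 to 2566 genes when 1 library was left out (above 0, 1439 to 1893; below 0, 635 to 850), and DESeq2 gave 1291 below 0 against 847. The interaction of Klf2, which did not pass, was 0.034 without adult CD8 replicate 4 and −0.237 without adult SP8 replicate 2.

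The labels do not say whether spleen and thymus libraries with the same replicate number are paired. Same-numbered libraries correlated with r of 0.0815, 0.156, 0.143 and 0.184 in their deviations from the group means, against −0.163 to 0.0365 for the other pairs, and each correlated best with its own number. The sex-linked sums also matched by number, with replicate 1 lowest in both groups (35.5 CPM in SP8 and 47.1 CPM in CD8). Both are hints of pairing from the data, and they do not settle it. The fit without the block is reported because 1 of the 4 correlations lay under 0.1, a mark chosen here. If the libraries are paired, its p-values ignore the pairing. With the replicate number as a block, 7162 genes were called, 3565 higher and 3597 lower, and the age interaction gave 3212 genes, 1896 above and 1316 below 0. Calls were gained with the block for Lef1 (0.48, adjusted p = 0.000145), Cd69 (0.33, adjusted p = 0.00553), Cxcr4 (0.26, adjusted p = 0.0234), Tap1 (0.21, adjusted p = 0.0465) and the interaction of Il7r (0.42, adjusted p = 0.00166), all by edgeR. Depth sets a floor of 0.157 to 0.211 CPM in these libraries, under which differences were not detectable.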

Other observations

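Other gene families, chosen by symbol after values were seen, were counted between adult SP8 and CD8 as a description. Cytosolic ribosomal protein genes were higher in 46 of 79 cases and lower in 2 by edgeR (median log2 fold change 0.35), with 58 and 2 under DESeq2 size factors and 60 and 2 without SP8 replicate 2. Translation initiation factors went the other way, with 31 of 54 lower and 2 higher (median −0.29). Proteasome subunits were lower in 33 of 39 cases and higher in 0 (median −0.66), with 32 lower and 1 higher under DESeq2 size factors. Complex I subunits encoded in the nucleus were lower in 37 of 46 cases and higher in 0 (median −0.52), with 34 lower and 1 higher under DESeq2 size factors. Of 13 mitochondrially encoded protein genes 1 was higher and 0 lower by edgeR (median 0.16), and 2 were higher under DESeq2 size factors. Genes of hnRNP, SR and snRNP proteins, which bind and splice RNA, were lower in 39 of 43 cases and higher in 2 under each scaling (median −0.64). Histone genes were lower in 33 of 50 cases (median −2.39), and their near-identical copies make single counts uncertain.

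Ly49 receptors (Klra genes), inhibitory and activating receptors of NK cells and of some memory-like CD8 cells, were higher in 8 of 9 cases under each scaling (median 3.93). Their levels were low and their copies are alike: Klra8 was at 0, 0.0657, 0 and 0.0652 CPM in SP8 and 0.826, 0.422, 0.688 and 0.3505 CPM in CD8. Ms4a family genes were higher in 6 of 8 cases and in 5 without SP8 replicate 2 (median 1.35 and 1.31). Among B cell genes beside them, Cd22 was at 0.0648, 0.592, 0.157 and 0.0652 CPM in SP8 and 3.72, 1.97, 4.63 and 2.804 CPM in CD8, and Ms4a1 was at or under the floor in both. The part of other cells in these values was not tested.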
